A study of Arabidopsis thaliana with 9 samples.

Results

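The UMAMIT genes of Arabidopsis thaliana are a family of amino acid transporter genes, and their chromatin is described here in sperm. The members were the nuclear protein-coding genes whose symbol is UMAMIT followed by a number, which gave 42 of 27444 genes. They were chosen by symbol, but the family was picked with its peak coverage already known, so every coverage value below is a description and no test was made on it. UMAMIT stands for "usually multiple acids move in and out transporters". These are proteins with several membrane-spanning helices that let amino acids cross membranes, mostly outward, and members are known from phloem unloading, the feeding of seeds and glucosinolate transport. H3K27me3 is the histone mark of genes silenced by Polycomb, and H3K27me1 is known in plants from silent heterochromatin.

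The material was sperm nuclei of htr10 mutant plants, isolated by sorting. HTR10 is a gene for a sperm histone H3, and the labels name no allele. Nucleosomes released with micrococcal nuclease were immunoprecipitated with an antibody against H3K27me1 (3 samples) or H3K27me3 (3 samples), beside 3 samples of input chromatin. All 9 samples carried the same genotype. A wild type was not analysed here, and what the mutation changes cannot be read from these values. The ecotype label reads Col-0 for 5 samples and runs from Col-1 to Col-4 over the other 4, and whether these differ was not tested. Each mark had 1 broad and 1 narrow peak list for its 3 samples together. The lists give no value per sample, so there was no replicate error, the depth is unknown, and the expression of the genes was not measured.

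A gene was called touched when at least 1 base lay under broad peaks, and marked when at least 50% of its length did. H3K27me1 touched 19 of the 42 UMAMIT genes (45.2%), where the same rule called 22.7% of all protein-coding genes. H3K27me3 touched 17 (40.5%), against 26% of all genes. Each mark marked 5 members (11.9%), against 5.49% of all genes for H3K27me1 and 5.67% for H3K27me3. Peaks of both marks touched 13 members (31.0%), against 17.5% of all genes, and 4 were marked by both (9.52%, against 3.73%). The median member was covered 0% by either mark, as was the median of all genes. The members' mean was 17.1% for H3K27me1 and 13.0% for H3K27me3, against 7.41% and 7.93% over all genes.

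The same shares were taken over genes of like length. The members were 1631 to 4972 bp long (median 2552 bp). The 16316 protein-coding genes within that range had a median of 2551 bp. Of them H3K27me1 touched 23.4% and marked 2.4%, and H3K27me3 touched 27.5% and marked 2.46%. Beside genes of like length the members thus lay higher at each of these 4 rules. The same held at intermediate coverage. At least 25% of the gene lay under H3K27me1 in 13 members (31.0%), against 7.0% of genes of like length and 8.98% of all genes. For H3K27me3 it was 10 members (23.8%), against 7.66% and 9.63%. Higher coverage turned the order against all genes. For H3K27me3 the members lay below all genes from 56% coverage on (4.76%, against 5.22% there). For H3K27me1 they did so from 72% on (2.38%, against 4.46%). At 75% coverage 1 member was left for each mark (2.38%, against 4.39% of all genes). Genes of like length stood at 1.16% for H3K27me1 and 1.07% for H3K27me3 there. Some members lie side by side and are not independent loci. With each tandem group counted once, H3K27me1 touched 12 of 31 loci (38.7%) and H3K27me3 13 (41.9%). A group counts as touched when any of its members is. The shares of single genes are therefore no like background for these loci, and none was taken. Among touched genes, the median member had 36.7% of its length under H3K27me1 and 28.3% under H3K27me3, against 16.3% and 15.1% for all touched genes.

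**Figure D1:**
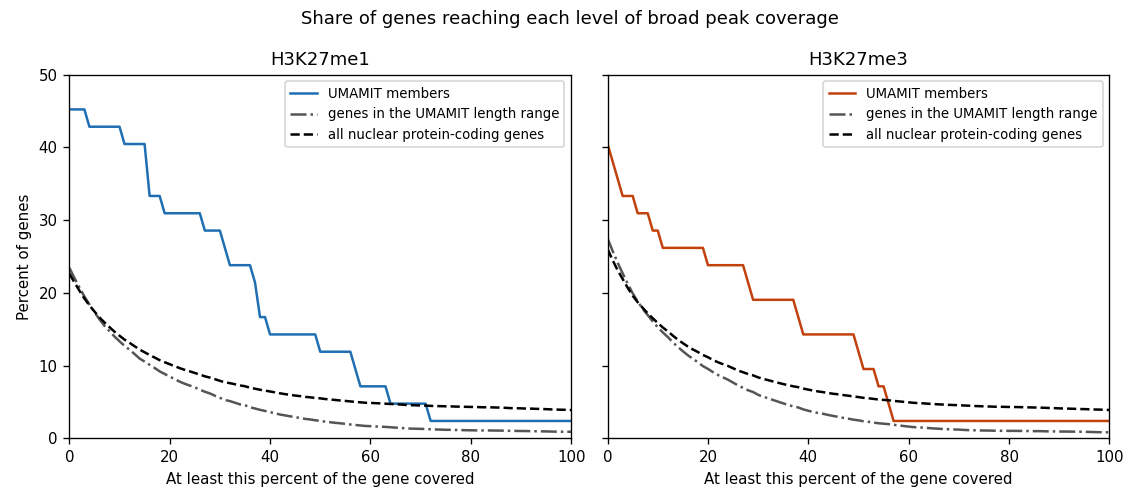
Share of genes (percent, vertical axis) whose length is covered by broad peaks to at least the percent on the horizontal axis, for the UMAMIT members (colour), protein-coding genes of 1631 to 4972 bp (dash-dot) and all nuclear protein-coding genes (dashed). The members start at 45.2% for H3K27me1 and 40.5% for H3K27me3 and lie above both backgrounds at 25% and 50% coverage. They fall below all genes from 56% coverage on for H3K27me3 and from 72% on for H3K27me1. At 75%, which UMAMIT44 alone reaches, they are at 2.38%, below the 4.39% of all genes. Genes of 1631 to 4972 bp are lower there, at 1.16% for H3K27me1 and 1.07% for H3K27me3.

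The family fell into 3 classes. Peaks of either mark touched the gene itself in 23 members (54.8%, against 31.2% of all genes). Of these, 13 had both marks, 6 had H3K27me1 only (14.3%, against 5.17%) and 4 had H3K27me3 only (9.52%, against 8.54%). Another 6 members (14.3%) had peaks in the 1 kb on either side but not in the gene. In 3 of them the flanks had both marks, in 2 H3K27me3 only and in 1 H3K27me1 only. Over all genes these flank-only states held 17.9%, 6.91% and 3.22%. With them, 29 members had a mark in gene or flank (69.0%, against 59.3%). The remaining 13 had no base of either mark in the gene or its flanks, which was 31.0% of the family against 40.7% of all genes. Genes with both marks had a median length of 2824 bp and those free of both 2184 bp. Over the 42 members, coverage rose with gene length (Spearman's rho 0.56 for H3K27me1 and 0.39 for H3K27me3), where over all genes rho was 0.04 and 0.05. All genes span 3 to 27265 bp, a far wider range than the members, and rho was not taken over genes of like length. The members share peaks and lists, so these correlations are descriptions.

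**Figure D2:**
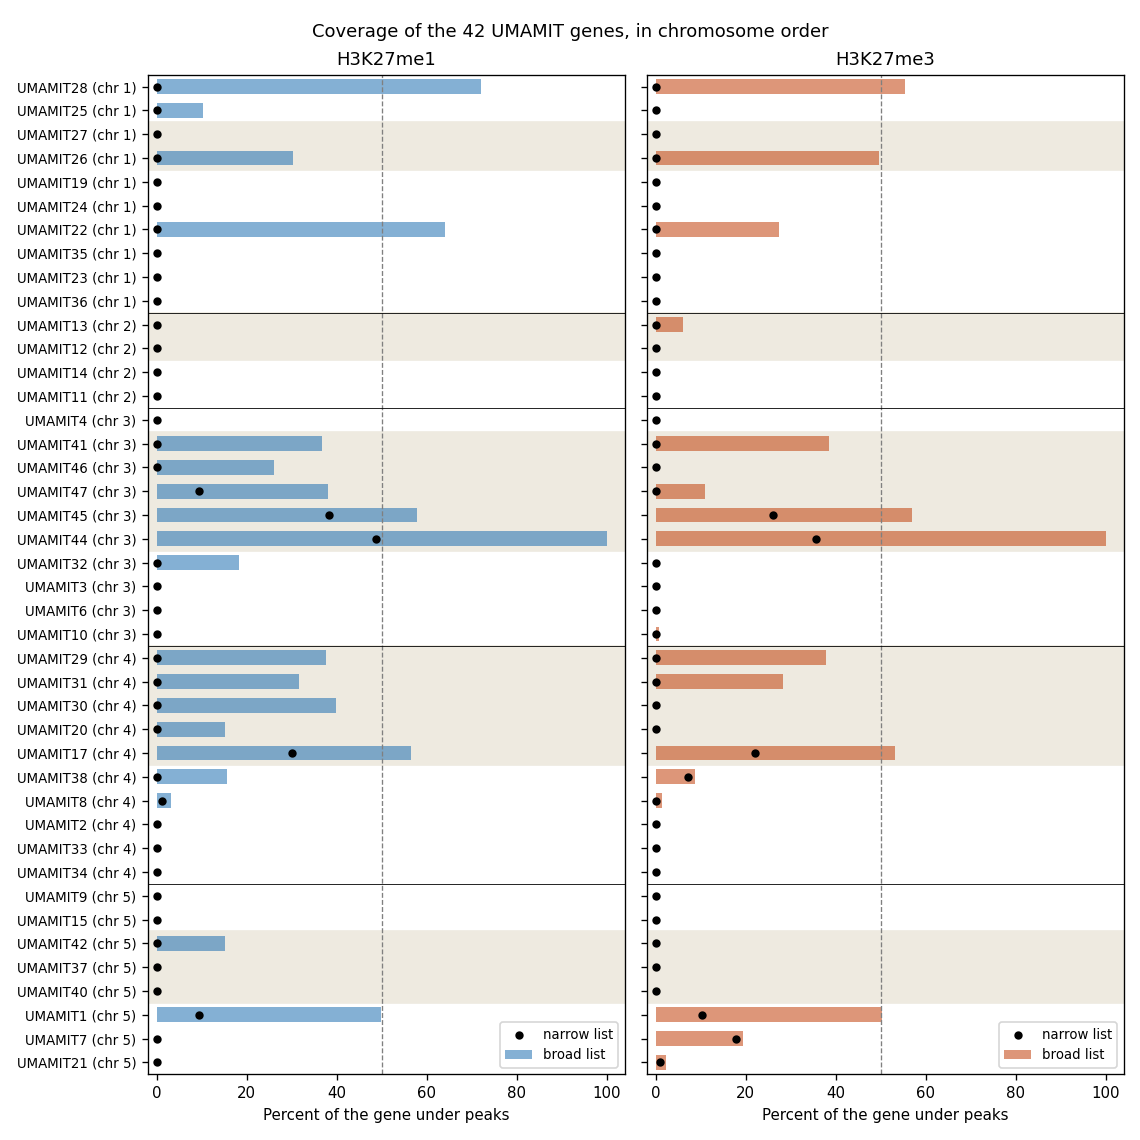
Percent of each of the 42 UMAMIT genes under H3K27me1 (left) and H3K27me3 (right) peaks, in chromosome order from top to bottom. Bars give the broad lists, black points the narrow lists, the dashed line the 50% threshold, beige bands the members of tandem groups and thin lines the chromosome borders. UMAMIT44 reaches 100% for both marks. Under the narrow lists, which cover far fewer bases, 0 members reach 50%, and the share of all genes that do was not taken.

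The member covered whole and the peaks of highest fold lay in a tandem array on chromosome 3. A tandem group was taken as members on 1 chromosome with at most 1 other protein-coding gene between neighbours, which gave 6 groups with 17 members. The chromosome 3 array held 5 of them, in the order UMAMIT41, UMAMIT46, UMAMIT47, UMAMIT45 and UMAMIT44, over 26351 bp. H3K27me1 covered 48.1% of that span and touched all 5 genes. H3K27me3 covered 35.6% and touched 4, with none in UMAMIT46. Both marks lay on the same bases over 35% of the span.

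UMAMIT44 (AT3G28130), reported to export glutamate from chloroplasts, was the only member covered whole. All of its 3699 bp (100%) fell in a single H3K27me1 peak, at chromosome 3, 10464323 to 10469459 on TAIR10. That peak had fold 1.89 and −log10 q 7.95. The gene was covered just as fully (100%) by an H3K27me3 peak at 10465181 to 10469395, of fold 1.86 and −log10 q 5.45. The fold is the authors' enrichment over the peak caller's background and belongs to the peak, not the gene. The narrow lists, which hold shorter stretches, covered 48.7% and 35.6% of this gene. Their main peaks had summits 27 bp apart in its interior, at 10466868 for H3K27me1 (fold 2.98) and 10466841 for H3K27me3 (fold 3.10). A second pair of narrow peaks, shorter than the first, lay just past its right edge, with summits 23 bp apart.

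UMAMIT45 (AT3G28100) carried the peaks of highest fold in the family. It was the longest member, with 4972 bp, of which 57.8% lay under H3K27me1 and 56.9% under H3K27me3. Most of this came from 1 broad peak per mark at the left side of the gene. For H3K27me1 it spanned 10453837 to 10458728, and its fold of 2.14 was among the highest 0.925% of that list. For H3K27me3 it spanned 10454895 to 10458565, and its fold of 2.26 was among the highest 0.781%. The narrow peaks within them had folds of 4.56 and 4.31, in the highest 0.349% and 0.313% of the narrow lists. Their summits lay 22 bp apart, at 10458030 and 10458008. A weaker broad peak of each mark, with folds of 1.42 and 1.48, reached over the right edge.

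The same broad peaks continued over the 705 bp between UMAMIT45 and its left neighbour UMAMIT47 (AT3G28080), which lay 100% under both marks. They covered the right part of UMAMIT47, 37.9% of it for H3K27me1 and 10.9% for H3K27me3. The array was not covered evenly. UMAMIT46 had 26.1% under H3K27me1, at its left edge, in a weak peak with a fold of 1.39, and 0% under H3K27me3. The 338 bp between UMAMIT46 and UMAMIT47 had no base of either mark. UMAMIT41 had 36.7% under H3K27me1 and 38.5% under H3K27me3, also from its left edge, with summits 48 bp apart outside the gene. The 3 other annotated genes inside the array, UMAMIT43-psi, AT3G28110 and AT3G28120, were at 0% for both marks. Covered and uncovered stretches thus alternated along the array.

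The group on the short arm of chromosome 4 differed in that the peaks lay mainly between the genes. It held UMAMIT29 (AT4G01430), UMAMIT31 (AT4G01440) and UMAMIT30 (AT4G01450), which are known as glucosinolate exporters, UMAMIT29 also from amino acid export in seeds. H3K27me1 covered 60.5% and H3K27me3 54.9% of the 25168 bp of this group. Gene-free sequence made up 17022 bp of it and was covered 69.2% and 67.2%. The bases of the 3 members were covered 36.4% and 22%. All 8270 bp between UMAMIT29 and UMAMIT31 lay under both marks, AT4G01435 included. The H3K27me1 peak there ran on chromosome 4 from 587174 to 597140 and the H3K27me3 peak from 587169 to 597062, so their starts differed by 5 bp and their ends by 78 bp.

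That interval, 9972 bp when both marks are joined, ranked 12 by width among 10142 such intervals outside the pericentromere windows, and 99.2% of it carried both marks. Its folds were modest, 1.59 and 1.65. It reached into both genes at its ends, covering 37.7% (H3K27me1) and 37.9% (H3K27me3) of UMAMIT29 and 31.6% and 28.3% of UMAMIT31. UMAMIT30 stood apart from both. H3K27me1 covered 39.7% of it from its left edge, in a peak with a fold of 1.47. H3K27me3 peaks lay on both sides of UMAMIT30 and covered 64.4% of its left and 76.3% of its right flank. They stopped outside the gene, which was at 0%.

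UMAMIT20 (AT4G08290) and UMAMIT17 (AT4G08300) form a pair in the pericentromere window of chromosome 4, where both marks are frequent. UMAMIT17 had 56.4% of its 3530 bp under H3K27me1 and 53.1% under H3K27me3, in 2 peaks of each mark that reach in from its edges. Of the gene, 49.1% and 49.2% lay under the left peak alone, so the call rests on the small right peaks with folds of 1.49 and 1.50. The narrow lists covered 30.1% of the gene for H3K27me1 and 22% for H3K27me3. UMAMIT20 had 15.2% under H3K27me1 and 0% under H3K27me3. The 3752 bp between them were covered 97.7% by H3K27me1 and 49.1% by H3K27me3.

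**Figure D3:**
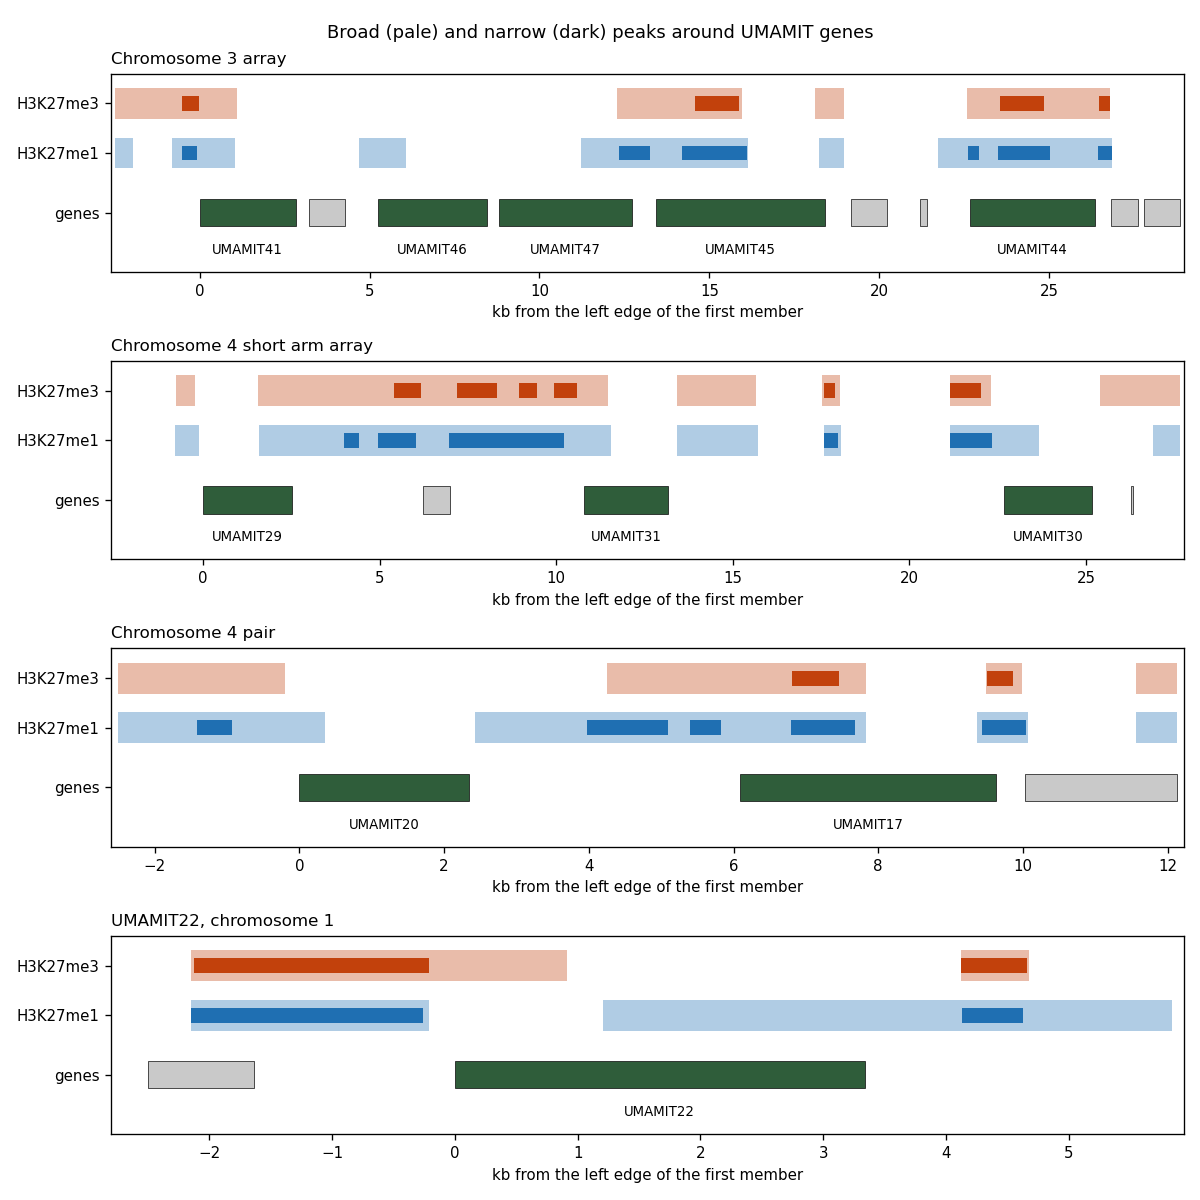
Peaks around 4 UMAMIT loci, with distance in kb from the left edge of the first member. Green boxes are members, grey boxes other annotated genes, pale bars broad peaks and dark bars narrow peaks. In the chromosome 3 array dark bars of both marks lie inside UMAMIT45 and UMAMIT44. On the short arm of chromosome 4 they lie between UMAMIT29 and UMAMIT31 and between UMAMIT31 and UMAMIT30. At UMAMIT22 the broad peaks of the marks meet the gene from opposite sides.

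In the other 3 tandem groups no member was marked. UMAMIT26 (AT1G11460) was covered 30.2% by H3K27me1 and 49.6% by H3K27me3, while its neighbour UMAMIT27 was at 0% for both. UMAMIT13 had 5.96% under H3K27me3 only, in a peak that covers 50.3% of the 1275 bp to UMAMIT12, and UMAMIT12 itself was at 0%. In the group of UMAMIT42, UMAMIT37 and UMAMIT40 on chromosome 5, a peak of 410 bp gave UMAMIT42 15.3% under H3K27me1 and was the only peak of either mark in the span. The MADS-box gene AGL43 and UMAMIT39-psi inside that group were at 0%. Over all groups, H3K27me1 touched 12 of the 17 tandem members and 7 of the 25 others, and H3K27me3 touched 9 and 8. Without the 5 members in the pericentromere windows the H3K27me1 counts were 10 of 15 and 5 of 22, and the H3K27me3 counts 8 of 15 and 7 of 22. The shares of the 22 were 22.7% for H3K27me1 and 31.8% for H3K27me3, against 18.6% and 23.1% of all protein-coding genes outside the windows. The difference between tandem and other members was not tested, since neighbours share peaks.

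Outside the arrays, 3 members were marked. UMAMIT28 (AT1G01070), known from amino acid export in developing seeds, had 72.0% of its 2574 bp under H3K27me1 and 55.4% under H3K27me3. Both peaks lay wholly inside the gene, on chromosome 1 from 38516 to 40368 and from 38553 to 39977. Their folds were 1.65 and 1.58, their −log10 q only 3.14 and 1.79, and the narrow lists had no peak there. UMAMIT1 (AT5G45370) sat at the threshold, with 49.9% under H3K27me1 and 50.2% under H3K27me3. Its broad peaks had nearly the same borders, from 18386872 to 18388767 and from 18386869 to 18388777 on chromosome 5, and their narrow summits were 9 bp apart. So the marks differ in the call for this gene through 10 bases, 1677 against 1687. For H3K27me3 UMAMIT1 was the member just inside the threshold and UMAMIT26, with 49.6%, the one just outside. For H3K27me1 these were UMAMIT17 and UMAMIT1.

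UMAMIT22 (AT1G43650) was covered by both marks on different parts of the gene. It lies in the pericentromere window of chromosome 1 and is 3337 bp long. H3K27me3 covered its left 27.4% (peak at 16441431 to 16444494, fold 1.60). H3K27me1 covered its right 63.9% (peak at 16444785 to 16449781, fold 1.53). Between them lay 290 bp without either mark, and 0 bases of the gene carried both. Of the 1728 protein-coding genes with at least 25% under each mark, 3 (0.174%) had no shared base, and UMAMIT22 was one of them. The 9 other members in that class shared bases. In the flanks of UMAMIT22 the marks did coincide, with narrow summits 86 bp apart on the left and 24 bp apart on the right. This gene was picked for the pattern after its values were seen.

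Across the family the marks mostly went together. Over the 42 members, the percent of the gene under H3K27me1 and under H3K27me3 had a Spearman's rho of 0.71, and over all genes 0.66. In the flanks rho was 0.79 for the members and 0.78 for all genes. The lists come from the same chromatin, so this is a description of shared positions. Of the 19 narrow H3K27me1 peaks in members or their flanks, 10 had a narrow H3K27me3 summit within 100 bp of their own, close to the 49.2% of all narrow H3K27me1 peaks that had one. Of the 6 members touched by H3K27me1 alone, UMAMIT30 (39.7%) and UMAMIT46 (26.1%) had the most, followed by UMAMIT32 with 18.2%. UMAMIT42 and UMAMIT20 had about 15%, and UMAMIT25, known from amino acid transfer in seeds, 10.1%. Among the 4 members touched by H3K27me3 alone, UMAMIT7 had 19.4%, in a peak of 468 bp inside the gene of which the narrow list kept 17.8%. UMAMIT13 had 5.96%, UMAMIT21 2.2% and UMAMIT10 0.702%.

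**Figure D4:**
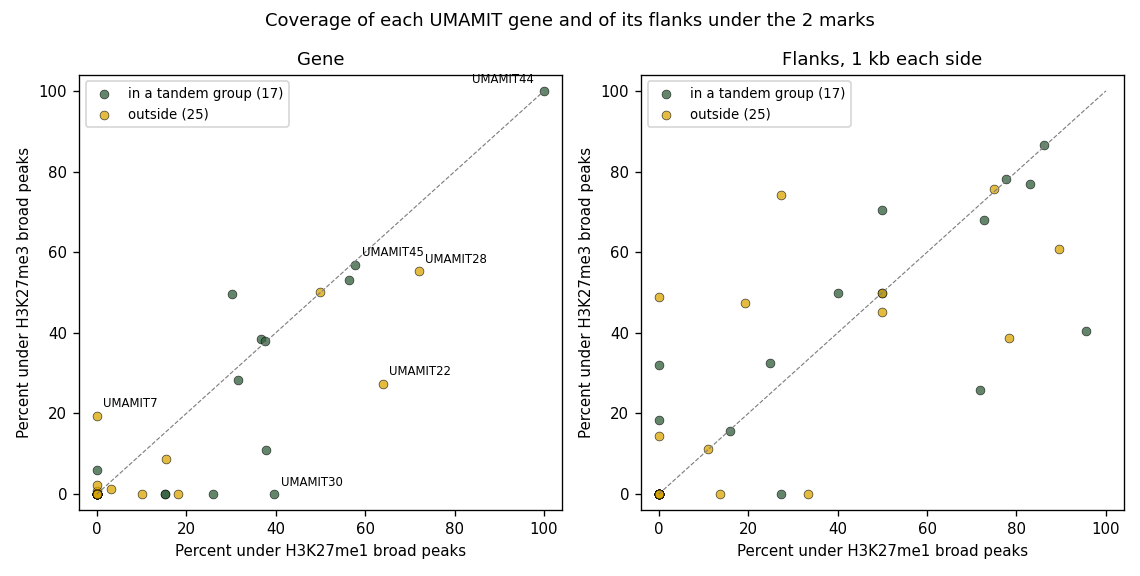
Percent of each UMAMIT gene (left) and of its flanks of 1 kb on each side (right) under H3K27me1 (horizontal) and H3K27me3 (vertical) broad peaks. Points are the 42 members, coloured by tandem group membership, and the dashed line marks equal coverage. UMAMIT44 lies at 100% for both, and UMAMIT22 and UMAMIT30 lie below the line, with 27.4% and 0% under H3K27me3.

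The peaks that touched members were ordinary in strength but wide. The 19 H3K27me1 peaks had a median fold of 1.53 where the whole list had 1.57, and the 17 H3K27me3 peaks 1.64 where the list also had 1.64. Their median widths were 1896 and 1909 bp, against 1168 and 1122 bp in the lists. A wide peak is likelier to reach a gene, so the widths were not compared further. A −log10 q of 5 was reached by 2 of the 19 H3K27me1 peaks (10.5%, against 19.6% of the list). For H3K27me3 it was 3 of the 17 (17.6%, against 12.4%). With such peaks alone, H3K27me1 touched 3 members (7.14%, against 5.02% of all genes) and H3K27me3 4 (9.52%, against 3.28%). Both UMAMIT44 and UMAMIT45 stayed marked by each (4.76%, against 1.69% and 0.867%). In each mark, 2 peaks touched 2 members, namely UMAMIT47 with UMAMIT45 and UMAMIT29 with UMAMIT31. Under the narrow lists, H3K27me1 touched 6 members (14.3%, against 8.5% of all genes) and H3K27me3 7 (16.7%, against 8.25%). UMAMIT44, UMAMIT45, UMAMIT17 and UMAMIT1 had narrow peaks of both marks. UMAMIT47 and UMAMIT8 had narrow H3K27me1 only, with 9.38% and 1.17%, and UMAMIT38, UMAMIT7 and UMAMIT21 narrow H3K27me3 only, with 7.12%, 17.8% and 0.91%.

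Most touched members were covered from an edge, at a share like that of all touched genes for both marks. The reference table gives no strand, so left and right follow the chromosome and not transcription. Of the 19 genes touched by H3K27me1, 13 were covered at 1 edge (68.4%, against 68.8% of all touched genes) and 2 at both edges. Another 3 held peaks inside only (15.8%, against 6.74%), and 1 was covered whole (5.26%, against 17.1%). Of the 17 touched by H3K27me3, 12 were covered at 1 edge (70.6%, against 71.1%) and 2 at both edges. Another 2 held peaks inside only (11.8%, against 6.9%), and 1 was covered whole (5.88%, against 15.0%). In the profile by distance from the edge, H3K27me1 covered 32.1% of positions 500 bp outside the members, 22.6% at the edge and 15.8% at 1000 bp inside. Over all genes these values were 21.8%, 13.3% and 3.18%. For H3K27me3 the members had 28.6%, 21.4% and 10.5% at the same distances, and all genes 24.1%, 15.0% and 3.30%. The members' values fell less toward the interior, and the array genes UMAMIT44 and UMAMIT45 are among those covered there. Shorter genes drop out inside, so 76 of 84 member positions but only 28888 of 54888 over all genes remain at 1000 bp. The falls thus compare unlike sets of genes, and no profile was made for genes of like length.

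**Figure D5:**
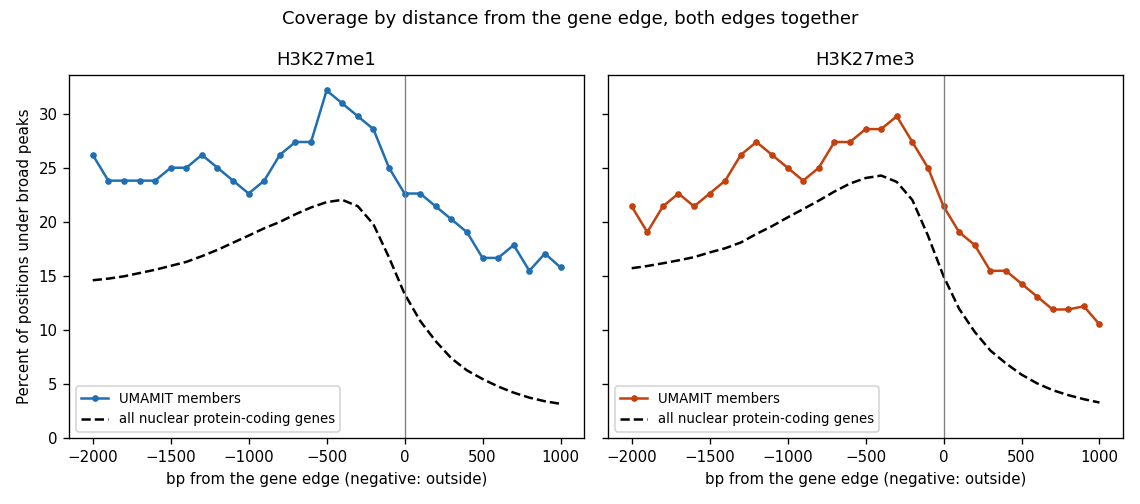
Percent of positions under broad peaks (vertical axis) by distance from the gene edge in bp (horizontal axis, negative outside the gene), both edges together, for the 42 UMAMIT members (solid) and all nuclear protein-coding genes (dashed). At 1000 bp inside, members stand at 15.8% for H3K27me1 and 10.5% for H3K27me3, against 3.18% and 3.30% over all genes, and positions inside neighbouring genes are included. Shorter genes drop out inside, which leaves 76 of 84 member positions and 28888 of 54888 over all genes at 1000 bp.

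By mean coverage, the 1 kb flanks of the members were nearer to the values of all genes than the gene bodies were. By median it was the reverse, as the median gene body was at 0% in both sets. The members' median flank coverage was 12.3% for H3K27me1 and 15.0% for H3K27me3, against 0% and 10.75% over all genes. H3K27me1 covered a mean of 27.2% of both flanks together and H3K27me3 26.5%, against 20% and 22% over all genes. The 25 members outside tandem groups turned this order, with 17.9% and 18.7%. At least 1 flank base lay under H3K27me1 in 22 members (52.4%, against 47.5% of all genes) and under H3K27me3 in 23 (54.8%, against 53.2%). At least 50% of the flanks lay under H3K27me1 in 13 members (31.0%, against 15.9%) and under H3K27me3 in 11 (26.2%, against 17.5%). The members with the most covered flanks were UMAMIT31, with 86.1% under H3K27me1 and 86.7% under H3K27me3, and UMAMIT29, with 83.0% and 76.8%. UMAMIT45 followed with 77.6% and 78.3%, UMAMIT21 with 74.95% and 75.65%, and UMAMIT22 with 89.5% and 60.9%. UMAMIT20 had the most covered H3K27me1 flanks, 95.7%, and 40.4% under H3K27me3. UMAMIT21 had 92.9% and 100% of its left flank covered, but only 0% and 2.2% of the gene itself. Its right flank was covered 57% and 51.3%, by peaks that began away from the gene edge. UMAMIT38 had its whole left flank under both marks and 15.6% and 8.65% of the gene. UMAMIT8 had its whole right flank under H3K27me1 and 88.2% of it under H3K27me3, and 3.17% and 1.34% of the gene.

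In the 6 members with covered flanks alone, the peaks stopped short of the gene. UMAMIT14 (AT2G39510), which works in phloem unloading and in amino acid export toward the seed, had 19.2% of its flanks under H3K27me1 and 47.5% under H3K27me3. UMAMIT2 had 27.3% and 74.2%, and UMAMIT40 24.9% and 32.4%. UMAMIT6 had 49.0% and UMAMIT12 18.3% of the flanks under H3K27me3 only, and UMAMIT35 33.5% under H3K27me1 only. The 13 members free of both marks in gene and flanks were UMAMIT3, UMAMIT4, UMAMIT9, UMAMIT11, UMAMIT15, UMAMIT19, UMAMIT23, UMAMIT24, UMAMIT27, UMAMIT33, UMAMIT34, UMAMIT36 and UMAMIT37. UMAMIT11 and UMAMIT24 are known from amino acid transfer to seeds, like UMAMIT28 and UMAMIT29, so members with that role were found with and without the marks. UMAMIT3 lay in a pericentromere window and still had 0% of both.

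Loci named UMAMIT outside the symbol rule carried little. SIAR1 (AT1G44800), also called UMAMIT18 and known from amino acid export in the silique, had 2.65% under H3K27me1 and 3.79% under H3K27me3. WAT1 (AT1G75500), also called UMAMIT5 and known from vacuolar auxin transport and secondary walls, had 14.1% and 0%. The 3 loci named as pseudogenes, UMAMIT16-psi, UMAMIT39-psi and UMAMIT43-psi, were at 0% for both marks.

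Other genes of amino acid transport were touched at shares near those of all genes, and each mark marked 1 of them. That was a smaller share than over all genes, but near that of genes in the UMAMIT length range. A list of 38 genes held the AAP, LHT, CAT and proline (ProT) transporters, ANT1 and 7 GLUTAMINE DUMPER (GDU) genes. The GDU genes were counted with the transporters and are 511 to 1259 bp long, shorter than any UMAMIT member. The table gave no family name for 6 LHT loci. H3K27me1 touched 8 of them (21.1%, against 22.7% of all genes) and marked 1 (2.63%, against 5.49%). H3K27me3 touched 10 (26.3%, against 26%) and marked 1 (2.63%, against 5.67%). Of protein-coding genes in the UMAMIT length range, 2.4% were marked by H3K27me1 and 2.46% by H3K27me3. The marked genes were AAT1, a cationic amino acid transporter with 55.3% under H3K27me1 and 1.09% under H3K27me3, and GDU7, a short gene of 511 bp with 0% and 100%. None of the 38 was marked by both, against 3.73% of all genes. Where the list was covered under both marks to a similar extent, as at ANT1 with 23.7% and 24.0% and at the amino acid permease AAP2 with 17.8% and 20.8%, the narrow lists kept most of it. At least 25% of the gene lay under H3K27me1 in 4 of these genes (10.5%, against 8.98% of all genes). For H3K27me3 it was 1 (2.63%, against 9.63%). The UMAMIT family had 13 (31.0%) and 10 (23.8%). This difference between the lists was not tested.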

How the data were processed

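Peaks of H3K27me1 and H3K27me3 from htr10 sperm were analysed, with 1 broad and 1 narrow list per mark. Per the labels, each list belongs to all 3 immunoprecipitations of its mark. The submitters' processing notes list MACS2 2.1.0, Bowtie2 2.1.0, deepTools 2.5.0.1, Picard, Trim Galore 0.4.1, bedtools and SAMtools 1.3, with TAIR10 as the build. How samples and inputs were combined and how reads that map to several places were treated are not given in the sources used here. The latter bears on tandem genes, whose sequences are alike. The deposited values per peak are a fold (a ratio over the caller's background), −log10 p, −log10 q and a score. The −log10 p and the score were not used. The deposited narrow lists also give the summit offset.

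Genes came from a RefSeq table on TAIR10.1 without strand, so no gene coordinates are printed and positions are those of the files, counted from 1. The shared numbering was checked by sliding narrow peaks against genes, and the overlap was lowest at 0 bp in 10 of 10 combinations of mark and chromosome. Overlapping peaks were joined before lengths were summed, in Python 3.11.15 with numpy 2.4.6. The coverage code was tested on simulated intervals. Flanks of 1 kb on each side include neighbouring genes. Pericentromere windows were whole Mb: 12 to 18 on chromosome 1, 1 to 7 on 2, 11 to 17 on 3, 2 to 6 on 4 and 9 to 16 on 5. Members, lists, windows and rules were chosen with earlier results of these data known. The genes named in full were the marked members, the 5 most covered per mark, those next to the threshold, the members of touched tandem groups and the 5 with the most covered flanks. UMAMIT22, and the one-mark and flank-only members outside this rule, were described after their values were seen. Without counts or values per sample there are no errors, tests or depth limits to give. No sequence of the genes was used here.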

Additional observations from a re-analysis of the deposited data

How the results depend on the processing

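No paired analysis was possible because each list pools the 3 samples of a mark, and leaving out a sample was not possible for the same reason. Which peaks are kept decides the calls. Marked members fell from 5 for each mark to 0 under the narrow lists, 2 with a −log10 q of at least 5 (UMAMIT44 and UMAMIT45), and 3 with the 50% of each list of highest fold. The narrow lists cover 1.13% (H3K27me1) and 0.959% (H3K27me3) of protein-coding bases, against 5.51% and 5.92% for the broad lists. How many of all genes have 50% of their length under narrow peaks was not taken. Requiring 75% of the gene left 1 (2.38%), below the 4.39% of all genes. It lay above genes of like length, at 1.16% for H3K27me1 and 1.07% for H3K27me3. Requiring 25% gave 13 for H3K27me1 and 10 for H3K27me3. Touched members, 19 and 17, were 6 and 7 under the narrow lists, 3 and 4 at that q, and 10 and 10 with the higher folds. The share of all genes was not taken for the higher folds. Mean flank coverage, 27.2% and 26.5%, was 8.92% and 6.10% under the narrow lists and 4.09% and 4.05% at that q. Flank means over all genes were not taken at these settings. Flanks of 500 bp or 2 kb, or without gene bases, gave 25 to 30.5%. Over all genes, mean H3K27me1 coverage was 7.41%, and 4.94% for genes of the members' length. The following were chosen after seeing the data. Members outside tandem groups had 2 marked for each mark (8%, against 5.49% and 5.67% of all genes). They had 7 and 8 touched (28% and 32%, against 22.7% and 26%). A mean of 17.9% of their flanks lay under H3K27me1, below the mean of all genes. Outside the windows H3K27me1 marked 3 members (8.11%, against 3.37% of all protein-coding genes outside the windows). With each tandem group as 1 locus H3K27me1 touched 12 of 31 loci, for which no like background was taken. The number of groups, 6, held with 0 or 5 other genes allowed between members, with 13 members in them at 0. The planned promoter motif search was not run, as no sequences were at hand. The cause of these shifts was not tested beyond the fewer bases or genes each setting keeps.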
